A study of Homo sapiens with 4 samples.

Results

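The genes of sterol synthesis, uptake and export were examined in LASCPC-01 cells treated with fluoxetine or with PBS. The 31 genes were taken by symbol from a list of sterol genes, and all 31 were found among the 16376 genes of the expression table. The rule used symbols and no measured value, although the list was drawn up with earlier results of these data known. LASCPC-01 is a single neuroendocrine prostate cancer (NEPC) line that was made by expressing NMYC together with activated AKT1, and its genotype is given as WT in the labels. Fluoxetine is a selective serotonin reuptake inhibitor used as an antidepressant, and PBS, in which it was dissolved, served as the control. Each group had 2 libraries, made from extracted total RNA. Nothing states that the libraries came from separate cultures, so p-values measure only the spread between these libraries. The paper treated the cells with 5 µM fluoxetine for 48 h, while the labels name day 3 and no dose. The titles of both fluoxetine libraries carry the letters PP, while their treatment field reads fluoxetine. For the library kit, the labels give a stranded TruSeq mRNA kit and the methods a VAHTS Universal kit.

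Cells make cholesterol from acetyl-CoA through the mevalonate pathway, squalene and lanosterol. When sterols in the endoplasmic reticulum are low, SCAP carries the precursors of the SREBP transcription factors to the Golgi for cleavage, and the released factors raise transcription of the synthesis and uptake genes. When sterols are plentiful, INSIG proteins hold SCAP back, and oxysterols activate the liver X receptors (LXR), which raise transcription of the export pumps. The list therefore holds 4 genes of SREBP regulation, 18 synthesis enzymes, 4 genes of uptake, transfer and storage, and 5 genes of LXR and export.

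Values are FPKM, the read fragments of a gene divided by its length and by the size of the library, so that levels can be compared between genes. The authors' library depth, as solved from the FPKM, ranged from 32873603 to 34831389 reads, and 1 read on a gene of 1 kb was worth 0.0287 to 0.0304 FPKM. Log2 values of the replicates correlated at 0.993 for PBS and 0.994 for fluoxetine across genes, which are not independent replicates. MYCN, expressed in making the line, had 323.1 to 386.5 FPKM in the 4 libraries. Of 8 neuroendocrine markers, 4 had a mean of at least 1 FPKM, while CHGA, CHGB and NEUROD1 were under 0.1 FPKM. The summed level of the 8, most of it MYCN, was 448.0 and 463.2 FPKM with PBS and 392.9 and 437.3 FPKM with fluoxetine. Of 7 luminal prostate markers, 5 had a mean of at least 1 FPKM, while KLK2 and KLK3 had means of 0.126 and 0.138 FPKM. The summed level of the 7, most of it KRT8, KRT18 and EPCAM, ranged from 1013.7 to 1071.2 FPKM with PBS. With fluoxetine this sum ranged from 1087.0 to 1175.3 FPKM. The 6 fibroblast markers summed to at most 3.14 FPKM, and the 4 leukocyte markers in the table to at most 4.03 FPKM.

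The sterol genes differed little between the groups. Of the 31, 30 reached a mean of 0.1 FPKM and were tested, and 0 of the 30 had an adjusted p under 0.05 with limma and Benjamini-Hochberg adjustment over 12663 genes, where 0.237% of all tested genes were called. At an unadjusted p under 0.05 there were 3 of the 30, namely INSIG1, NSDHL and HSD17B7, where 8.51% of all tested genes lay under that value. Adjusted p-values of the 30 genes ran from 0.525 to 0.985 (limma). The log2 fold changes, fluoxetine minus PBS on the log2(FPKM + 0.1) scale, ran from -0.19 for INSIG1 to 0.21 for HSD17B7, with a median of -0.04 beside -0.02 over all tested genes. The 95% interval of the difference stayed within 1.5-fold in either direction for 30 of the 30 genes and within 1.25-fold for 21. Of all 12663 tested genes, 10077 and 5872 had intervals within these limits. With 2 libraries in each group, the smallest p that an exact two-sided permutation test can give for 1 gene is 0.33.

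Without a test, 14 of the 30 genes (46.7%) had both fluoxetine libraries below both PBS libraries, beside 24.8% of all tested genes. Another 4 (13.3%) had both fluoxetine libraries above both PBS libraries, beside 16.7% of all tested genes. In the other 12 the groups overlapped. The gaps between the groups could be narrow. SCAP had 34.5 and 34.7 FPKM with PBS and 31.2 and 34.4 FPKM with fluoxetine, so that fluoxetine replicate 2 lay just under PBS. RNA was taken from whole cultures, in which fewer cells making a transcript and less of it per cell cannot be told apart.

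The promoters of 3 genes are shown: SREBF2, because it was the only one of the 27 members with a promoter at hand to hold a sterol regulatory element core, and INSIG1 and HSD17B7, because they had the lowest and the highest fold change of the members. Each sequence is RefSeq's on GRCh38.p14 and runs from 150 bases before the annotated start of the gene to the base before it, on the plus strand, 5′ to 3′. Capitals mark matches on either strand to TCACNCCAC (a sterol regulatory element core, in which N is any base), CCAAT (the letters NF-Y binds) or GGGCGG (a GC box, the letters Sp1 binds). The regions are chr22:41832955-41833104 for SREBF2, chr7:155297728-155297877 for INSIG1 and chr1:162790552-162790701 for HSD17B7.
SREBF2: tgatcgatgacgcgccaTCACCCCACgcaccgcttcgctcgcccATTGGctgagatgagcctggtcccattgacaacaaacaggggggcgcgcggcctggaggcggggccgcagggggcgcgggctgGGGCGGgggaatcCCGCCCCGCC
INSIG1: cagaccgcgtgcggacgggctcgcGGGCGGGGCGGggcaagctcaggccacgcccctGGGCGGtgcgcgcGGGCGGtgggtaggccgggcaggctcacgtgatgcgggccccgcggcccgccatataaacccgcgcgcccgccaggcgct
HSD17B7: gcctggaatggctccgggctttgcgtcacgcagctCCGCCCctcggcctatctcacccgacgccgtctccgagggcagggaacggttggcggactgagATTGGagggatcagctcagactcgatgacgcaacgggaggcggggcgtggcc

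Promoter windows from 250 bases before to 50 after the start were at hand for 27 of the members, not for ACAT2, FDFT1, SQLE and ABCG1, in 36 windows among 35116 of all genes. The sterol regulatory element core was in 1 of the 36 windows (2.78%), that of SREBF2 at position -133, beside 1.13% of all windows. CCAAT was in 22 of the 36 windows (61.1%), belonging to 20 members, beside 34.6% of all windows. In SREBF2 it stood at position -106, between the core and the start. The GC box was in 32 of the 36 windows (88.9%), belonging to 26 members, beside 45.0% of all windows. A match describes the letters of the window and not a bound site, and no match says only that these letters are not in it.

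The 4 genes of SREBP regulation all had a negative log2 fold change, from -0.19 to -0.04, and 2 of the 4 had both fluoxetine libraries below both PBS libraries, as did 24.8% of all tested genes. Over all 12663 tested genes, 7156 had a negative log2 fold change. INSIG1, on chromosome 7, encodes the protein that retains SCAP in the endoplasmic reticulum and is itself a target of the SREBPs. It had 44.2 and 42.7 FPKM with PBS and 38.7 and 37.3 FPKM with fluoxetine. Both fluoxetine values were below both PBS values, and the 2 libraries of each group lay close together. The group means were 43.5 ± 1.02 FPKM (SD, n = 2) and 38.0 ± 0.970 FPKM (SD, n = 2), a log2 fold change of -0.19 (standard error 0.07, 95% interval -0.35 to -0.04), or a level lower by 12.5%, with an adjusted p of 0.525 (limma).

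SREBF2, which encodes the factor that drives the sterol genes, had 57.0 and 57.4 FPKM with PBS and 51.4 and 58.2 FPKM with fluoxetine. Fluoxetine replicate 1 was the lowest of the 4 libraries and replicate 2 the highest, so the groups overlapped. Its log2 fold change was -0.06 (95% interval -0.23 to 0.11). SREBF1, whose product acts more on fatty acid genes, had 37.7 and 40.4 FPKM with PBS and 37.2 and 38.7 FPKM with fluoxetine, again with overlap and a log2 fold change of -0.04 (95% interval -0.20 to 0.12). SCAP, the escort of the SREBPs, had a log2 fold change of -0.08 (95% interval -0.25 to 0.09).

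The 18 synthesis enzymes had a median log2 fold change of -0.04 and ranged from -0.15 to 0.21. Fluoxetine lay below PBS without overlap for 10 (55.6%, beside 24.8% of all tested genes) and above it for 4 (22.2%, beside 16.7%). No bound of the 95% intervals lay outside -0.35 to 0.41. Their levels were spread from SC5D at a mean of 9.93 FPKM to FDPS at 89.8 FPKM, and FDPS was at the 95.9th percentile of all listed genes. Among the 7 enzymes from acetyl-CoA to farnesyl diphosphate the median was 0.01, and among the 11 from squalene to cholesterol it was -0.08.

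ACAT2, the thiolase that joins acetyl-CoA units, had 34.2 and 32.8 FPKM with PBS and 37.1 and 35.8 FPKM with fluoxetine, higher in both fluoxetine libraries, with a log2 fold change of 0.12 (95% interval -0.04 to 0.28). HMGCS1, the HMG-CoA synthase that takes the next step, stood the other way. It had 25.2 and 24.3 FPKM with PBS and 21.9 and 23.3 FPKM with fluoxetine, lower in both fluoxetine libraries, with a log2 fold change of -0.13 (95% interval -0.30 to 0.03). IDI1, the isopentenyl diphosphate isomerase, had 10.5 and 10.4 FPKM with PBS and 9.61 and 9.38 FPKM with fluoxetine, also lower in both, with a log2 fold change of -0.14. The kinase PMVK had 12.5 and 12.4 FPKM with PBS against 13.4 and 12.9 FPKM with fluoxetine, and the decarboxylase MVD 45.4 and 46.3 FPKM against 44.6 and 44.0 FPKM. PMVK was higher and MVD lower in both fluoxetine libraries, by 0.08 and -0.05 on the log2 scale. The groups overlapped for the mevalonate kinase MVK, at 17.2 to 19.0 FPKM over the 4 libraries, and for the farnesyl diphosphate synthase FDPS, at 85.9 to 93.7 FPKM.

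The genes of the squalene steps had lower values in both fluoxetine libraries. FDFT1, the squalene synthase, had 53.6 and 51.6 FPKM with PBS and 50.2 and 48.1 FPKM with fluoxetine. SQLE, the squalene epoxidase, had 37.7 and 35.9 FPKM with PBS and 35.8 and 33.9 FPKM with fluoxetine. LSS, which closes the ring to lanosterol, had 48.1 and 47.6 FPKM with PBS and 42.9 and 46.1 FPKM with fluoxetine. In all 3 genes the fluoxetine libraries lay below those of PBS without overlap, as in 24.8% of all tested genes. The differences of -0.10, -0.08 and -0.10 on the log2 scale did not pass the test. For FDFT1 and SQLE, PBS replicate 2 and fluoxetine replicate 1 lay next to each other, so that the gap between groups was smaller than that within them.

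The enzymes after lanosterol lay in both directions. MSMO1, which oxidizes the methyl groups of the ring, had 27.6 and 26.3 FPKM with PBS and 24.3 and 24.8 FPKM with fluoxetine, lower in both. NSDHL, the dehydrogenase of the same demethylation, had 22.0 and 20.7 FPKM with PBS and 24.0 and 24.0 FPKM with fluoxetine, higher in both. HSD17B7, the keto reductase that completes it, had 11.7 and 10.8 FPKM with PBS and 13.7 and 12.3 FPKM with fluoxetine, again higher in both. Enzymes of one reaction sequence therefore stood on both sides of 0, at -0.13 for MSMO1, 0.17 for NSDHL and 0.21 for HSD17B7 on the log2 scale. For NSDHL the group means were 21.3 ± 0.899 and 24.0 ± 0.0109 FPKM (SD, n = 2), with a 95% interval of 0.00 to 0.34 and an adjusted p of 0.568 (limma). For HSD17B7 they were 11.2 ± 0.632 and 13.0 ± 0.944 FPKM (SD, n = 2), with a 95% interval of 0.01 to 0.41 and an adjusted p of 0.552 (limma).

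**Figure D1:**
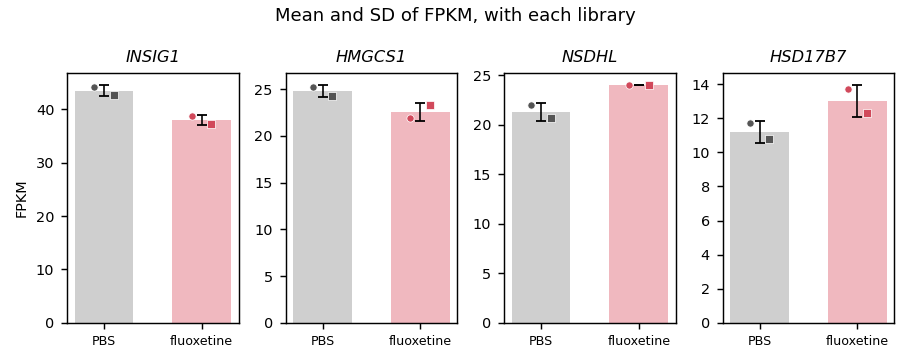
FPKM (vertical axis, from 0) of INSIG1, HMGCS1, NSDHL and HSD17B7 in the PBS and fluoxetine groups, with bars for the mean, error bars for the SD and points for the 2 libraries (circles replicate 1, squares replicate 2). INSIG1 and HMGCS1 were lower and NSDHL and HSD17B7 higher in both fluoxetine libraries, and 0 of the 4 passed the adjusted threshold.

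Of the remaining enzymes, CYP51A1, the lanosterol demethylase, had 46.5 and 44.5 FPKM with PBS and 44.5 and 41.7 FPKM with fluoxetine. SC5D, a sterol desaturase, had 10.4 ± 0.578 FPKM (SD, n = 2) with PBS and 9.80 and 9.01 FPKM with fluoxetine. DHCR7, a reductase of the last steps, had 57.7 and 57.6 FPKM with PBS and 56.0 and 56.6 FPKM with fluoxetine. SC5D and DHCR7 were lower in both fluoxetine libraries, at -0.15 and -0.03 on the log2 scale. CYP51A1 was at -0.08, with PBS replicate 2 and fluoxetine replicate 1 equal at the digits given, so that its count among the lower genes rests on the next digit. For EBP, the sterol isomerase, the lowest library was PBS replicate 2 at 63.6 FPKM and the highest PBS replicate 1 at 73.2 FPKM, with both fluoxetine libraries between them. The reductase TM7SF2 also overlapped, at 26.4 to 30.6 FPKM over the 4 libraries, and both of its extremes were PBS libraries.

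Of the genes of uptake, transfer and storage, STARD4 and NPC1 were lower in both fluoxetine libraries, as were 24.8% of all tested genes. For NPC2 and SOAT1 the groups overlapped. NPC1, the membrane protein that moves cholesterol out of lysosomes, had 4.31 and 4.47 FPKM with PBS and 4.06 and 4.01 FPKM with fluoxetine, which gave a log2 fold change of -0.12 (95% interval -0.36 to 0.12). Its soluble partner NPC2 had 30.9 and 26.2 FPKM with PBS and 30.6 and 28.0 FPKM with fluoxetine. Both fluoxetine values of NPC2 lay inside the range of PBS, with a log2 fold change of 0.04 (95% interval -0.16 to 0.24). STARD4, a carrier of sterols through the cytosol, had 3.14 and 3.46 FPKM with PBS and 2.94 and 3.06 FPKM with fluoxetine. SOAT1, which esterifies cholesterol for storage, had 2.76 to 3.06 FPKM over the 4 libraries.

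The LXR and export genes showed no separation of the groups. Their median log2 fold change was -0.00 over the 4 tested genes, from -0.03 to 0.07. The groups overlapped in all 4, as they did in 7398 of all 12663 tested genes. The receptors differed in level. NR1H2 (LXR beta) had 17.8 and 15.6 FPKM with PBS and 16.7 and 17.1 FPKM with fluoxetine, and NR1H3 (LXR alpha) 3.45 and 2.68 FPKM with PBS and 3.51 and 2.94 FPKM with fluoxetine. For NR1H3 the replicates of a group lay further apart than the group means, at 3.07 ± 0.542 and 3.22 ± 0.403 FPKM (SD, n = 2).

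The export pumps were the lowest of the members. ABCA1, which loads cholesterol on lipid-poor apolipoprotein, had 0.00456 and 0.0216 FPKM with PBS and 0.0280 and 0.00430 FPKM with fluoxetine, from 2, 10, 13 and 2 solved reads. One library of each group was high and the other low, and at this depth no difference was detectable. ABCG1, the pump that passes cholesterol to lipoprotein particles, had 0.775 and 0.718 FPKM with PBS and 0.614 and 0.856 FPKM with fluoxetine, from 245 to 342 solved reads. Both extremes were fluoxetine libraries, and the 95% interval of -0.53 to 0.47 on the log2 scale was the widest of the members. MYLIP, an LXR target whose product marks lipoprotein receptors for breakdown, had 4.76 and 4.24 FPKM with PBS and 4.09 and 4.79 FPKM with fluoxetine. Here too the fluoxetine libraries were the lowest and the highest, with a log2 fold change of -0.02 (95% interval -0.29 to 0.24).

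**Figure D2:**
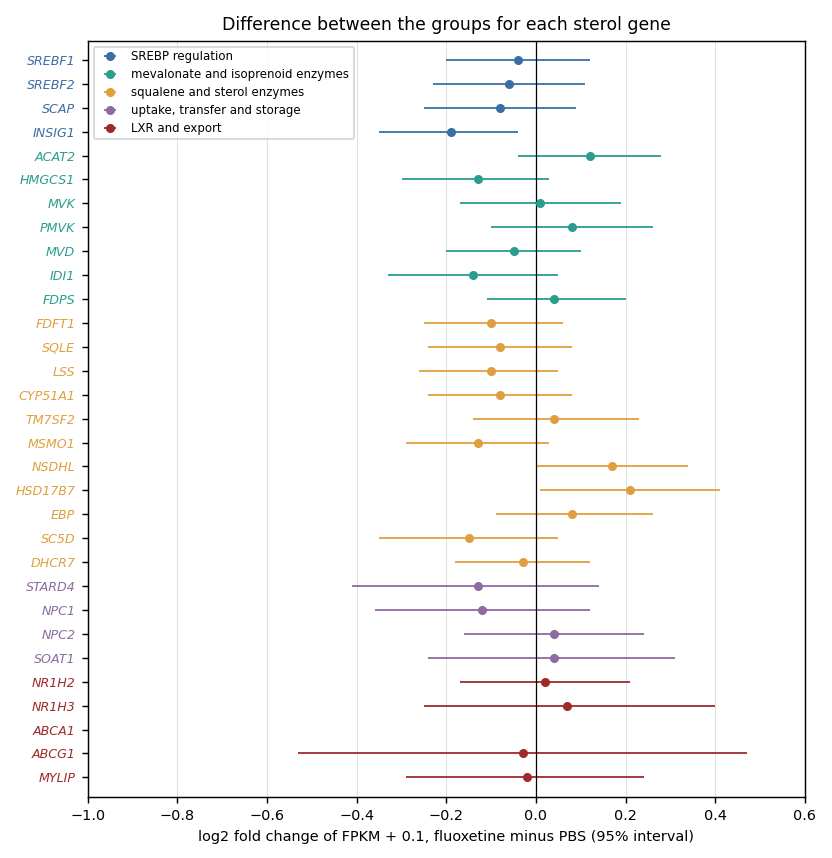
Log2 fold change, fluoxetine minus PBS on the log2(FPKM + 0.1) scale (horizontal axis), of each sterol gene, with points for the limma estimate, lines for its 95% interval and colors for the role. The estimates lie between -0.19 and 0.21, 3 of the 30 intervals do not cross 0 before adjustment, and ABCA1 was under the level tested.

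Gene length, as solved from the FPKM, moved with the differences. The 4 genes higher in both fluoxetine libraries had lengths of 1281 bases (PMVK) to 1821 bases (ACAT2). The 14 genes lower in both had lengths of 2094 bases (MVD) to 10109 bases (STARD4), so the lengths of the higher and the lower genes did not overlap. Across the 30 genes, which share the 4 libraries, the log2 fold change correlated with log2 length at -0.617, against -0.200 across all 12663 tested genes. These sets were not matched for expression level. By library, how far each gene lay from its 4-library mean correlated with log2 length at -0.666 in fluoxetine replicate 1 and 0.645 in PBS replicate 2. It did so at 0.065 in PBS replicate 1 and -0.007 in fluoxetine replicate 2. Over all tested genes these were -0.285, 0.192, 0.055 and 0.043 in the same order. A solved length can be a fraction of the true one, as may be so for FDPS at 849 bases.

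When the length trend of each library was removed, 9 members were lower and 3 higher in both fluoxetine libraries, in place of 14 and 4, while 20.1% of all tested genes were then lower and 19.5% higher. The synthesis enzymes then had a median of -0.06. INSIG1 was then at -0.21, NSDHL at 0.12 and HSD17B7 at 0.16 on the log2 scale. Some other differences became smaller, as for PMVK (0.08 to 0.01), STARD4 (-0.13 to -0.03), NPC1 (-0.12 to -0.04), SC5D (-0.15 to -0.08), HMGCS1 (-0.13 to -0.07) and ACAT2 (0.12 to 0.07). Others became larger, as for MSMO1 (-0.13 to -0.16), MVD (-0.05 to -0.09), DHCR7 (-0.03 to -0.05) and SOAT1 (0.04 to 0.11). With each library centred on its median, 8 members were lower and 4 higher in both fluoxetine libraries, while 19.9% of all tested genes were lower and 21.3% higher.

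Reads of some members may not be their own. ACAT2 shares exon sequence with SOD2 and TCP1, MVK with MMAB, NPC1 with RMC1, NPC2 with ISCA2, NR1H3 with ACP2 and SREBF1 with RAI1, each on the opposite strand in GENCODE 29, and the strand setting of the counting is not given in the sources used here. CYP51A1 shares exons with same-strand genes that are not in the table. Annotated pseudogenes bear the name of FDPS (8), CYP51A1 (3) and HSD17B7 (2), and 0 of them are in the table, so the values of these genes are uncertain where reads fit both copies.

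Beyond the members, 66 of 72 further genes of sterol control, isoprenoid branches, transfer and disposal were in the table, and 65 were tested. With limma, 0 of the 65 passed an adjusted p of 0.05, where 0.237% of all tested genes did. Before adjustment 3 of the 65 had a limma p under 0.05, where 8.51% of all tested genes lay under that value. Fluoxetine lay below PBS without overlap for 20 (30.8%) and above it for 8 (12.3%), where all tested genes had 24.8% and 16.7%, and the median log2 fold change was -0.04. INSIG2, the close relative of INSIG1 with the same hold on SCAP, had the largest difference among those with at least 1 FPKM and no overlap. It had 4.0 and 3.96 FPKM with PBS and 3.09 and 2.72 FPKM with fluoxetine. Both INSIG genes were thus lower in both fluoxetine libraries. For INSIG2 the log2 fold change was -0.45 (standard error 0.12, 95% interval -0.71 to -0.18), with an adjusted p of 0.329 (limma).

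Next in size, among those with at least 1 FPKM and no overlap, were OSBPL1A, an oxysterol-binding protein, and LRP1, an endocytic receptor of lipoproteins. OSBPL1A had 5.73 and 5.78 FPKM with PBS and 4.25 and 5.24 FPKM with fluoxetine. LRP1 had 1.67 and 1.62 FPKM with PBS and 1.16 and 1.58 FPKM with fluoxetine. For both, the difference lay mainly in fluoxetine replicate 1. HSD3B7, an enzyme of bile acid synthesis, was the only one of the 6 genes named here with higher values in the fluoxetine libraries, at 0.21 on the log2 scale. FADS2, a fatty acid desaturase, and ERLIN2, which takes part in the breakdown of endoplasmic reticulum proteins, were both at -0.19. Without 1 library, the values ran from -0.53 to -0.36 for INSIG2, -0.43 to -0.13 for OSBPL1A, -0.48 to -0.05 for LRP1, 0.13 to 0.28 for HSD3B7 and -0.28 to -0.10 for both FADS2 and ERLIN2. Adjusted p-values of these 5 genes ran from 0.552 (OSBPL1A) to 0.666 (LRP1) with limma.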

How the data were processed

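RNA of 2 PBS-treated and 2 fluoxetine-treated LASCPC-01 samples was sequenced, and the samples were grouped by their treatment labels. The authors deposited FPKM for each gene and library. The submitters' processing notes name fastp, HISAT2, HTSeq and GRCh38, without roles, and the annotation is not given in the sources used here. The members, gene lists and motifs were chosen with earlier results of these data known.

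The paper names DESeq2, but FPKM are not counts, so limma 3.58.1 in R 4.3.3 (lmFit, eBayes with a variance trend) was fitted to log2(FPKM + 0.1). It took the 12663 genes whose mean reached 0.1 FPKM, and p-values were adjusted over them by Benjamini-Hochberg, with a threshold of 0.05. At low FPKM this scale gives fold changes that are too small. Other steps were run in Python 3.11.15 (matplotlib 3.10.9, numpy 2.4.6, scipy 1.17.1, pandas 2.3.3). The test was checked on simulated data with independent normal noise. These held no length trend of a library, so the check does not cover such a trend.

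Reads, lengths and depth were solved from the FPKM as the smallest whole numbers, within 0.004 of a read, with GENCODE 29 exon lengths to set the depth, on which 52 genes agreed. This solved 15217 of 16080 genes above 0 (94.6%). Of these, 203 had their GENCODE 29 exon length, and the others were given the smallest length that fitted. The reads of replicates differed by more than counting error, at a chi-square divided by its degrees of freedom of 9.57 between the PBS libraries and 11.6 between those of fluoxetine, so each library was counted once. Depth covers counting error only.

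All members were named. Of the further pathway genes, any called would have been named, together with the 6 of largest fold change among those with a mean of at least 1 FPKM and no overlap. Alternatives were other pseudocounts, filters, normalizations and moderation, removal of the length trend (lowess, span 0.3), the replicate number as a block, voom on solved reads, and leaving out each library. Promoters were RefSeq's on GRCh38.p14. Some well-known genes of the pathway and some marker genes are not reported here.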

Additional observations from a re-analysis of the deposited data

How the results depend on the processing

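Under the 17 alternatives, 0 of the 30 tested members had an adjusted p under 0.05 (limma), and the lowest adjusted p of a member was 0.344, for INSIG1 with the replicate block. Of the 30, 18 kept their direction under every alternative, INSIG1 (-0.24 to -0.17), NSDHL (0.12 to 0.21) and HSD17B7 (0.14 to 0.29) among them. Members lower in both fluoxetine libraries numbered 14, but 8 with median centring and 9 with the length trend removed, with or without the replicate block. The split of lower against higher was then 8 to 4 and 9 to 3, in place of 14 to 4, while the share of all tested genes that was lower went from 24.8% to 19.9% and 20.1%. These counts were not made with a library left out. The median of the synthesis enzymes was -0.04 and moved to -0.09 when rescaled to TPM, which moved the median of all tested genes from -0.021 to -0.070. That of the LXR and export genes ran from -0.09 to 0.09 when 1 library was left out.

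The other 12 members changed sign under at least 1 alternative. With the length trend removed, and equally with the replicate block added, SREBF2 was at 0.01, MVK at -0.01, FDPS at -0.06, TM7SF2 at -0.01, NPC2 at -0.03, NR1H2 at -0.01 and ABCG1 at 0.08. Rescaled to TPM, which lowers the fold change of all genes about alike, MVK was at -0.04, NPC2 at -0.01, SOAT1 at -0.01 and NR1H2 at -0.03. With quantile normalization ABCG1 was at 0.09 and MYLIP at 0.03. Leaving out 1 library gave ranges of -0.09 to 0.01 for SREBF1, -0.15 to 0.03 for SREBF2, -0.06 to 0.08 for MVK, -0.06 to 0.15 for TM7SF2, -0.02 to 0.18 for EBP, -0.08 to 0.16 for NPC2, -0.02 to 0.09 for SOAT1, -0.08 to 0.12 for NR1H2, -0.10 to 0.25 for NR1H3, -0.24 to 0.18 for ABCG1 and -0.13 to 0.09 for MYLIP. The library left alone in its group was assumed to vary like the others. The cause of these changes of sign was not tested.

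Over all genes, 30 were called (27 lower, 3 higher), against 64 with the replicate block (47 lower, 17 higher), 52 with voom on solved reads, 16 with quantile normalization and 2 to 12 with 1 library left out. With no filter 0 were called, with 1175 at an unadjusted p under 0.05, and without the variance trend 0 were called, with 933. The labels do not say that a replicate number marks a shared batch, and each group has 2 libraries, so the numbers were not taken as pairs. The log2 difference of replicate 1 minus replicate 2 with PBS was correlated with that with fluoxetine. This gave 0.035 over all tested genes, 0.058 from 1 FPKM, 0.101 from 10 FPKM and 0.272 over the members. Depth limits ABCA1, with 2 to 13 reads.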
